A study of Mus musculus with 38 samples.

Results

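Mouse embryonic stem cells were compared after 24 h and after 12 h of all-trans retinoic acid (RA), and genes were kept that lay on the same side of the comparison in 3 assays. The assays were bulk RNA-seq of the whole population, SCRB-seq of single cells and SMART-seq2 of single cells. Of 22341 genes listed in all 3 tables, 7234 passed a floor on low values, and 2541 of these had the same direction in every assay. The higher side at 24 h held 1377 genes (19% of those past the floor) and the lower side 1164 (16.1%). A closer set, used for most of what follows, had a ratio of at least 1.5-fold in every assay: 59 genes were higher at 24 h (0.816% of the genes past the floor) and 62 were lower (0.857%), 121 in all. These counts describe the rule and are not a test, since each assay had 1 library or plate at each time point.

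The cells were E14 mouse embryonic stem cells (mESCs), an established line grown without feeder cells in 2i/L, a medium with an inhibitor of MEK, an inhibitor of GSK3 and the cytokine LIF. For differentiation they were moved to N2B27 basal medium with 0.25 µM RA. The samples at 12 h and 24 h were 1 bulk library, 1 SCRB-seq plate and 1 set of SMART-seq2 cells each, 6 of the 38 samples of the series, and the other samples used here were mESCs in 2i/L (2 bulk libraries), the remaining RA time points, and 2 sorted populations at 96 h. The sorted ectoderm-like cells were CD24 positive and PDGFRA negative, the sorted XEN-like cells (extraembryonic endoderm) were PDGFRA positive and CD24 negative, and each had 2 bulk libraries. All cells from 6 h on had both lost 2i/L and received RA, and no time-matched cells without RA are analysed here, so the effect of RA and that of medium withdrawal cannot be told apart.

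RA is made from vitamin A and acts in the nucleus through RA receptors that pair with RXR proteins on a direct repeat of a 6-base motif, most often with a spacer of 5 bases (DR5). Cells carry RA on the binding proteins CRABP1 and CRABP2, take up retinol through STRA6 and destroy RA with CYP26 enzymes, whose genes are themselves induced by RA. In embryos RA sets the anterior limits of the Hox genes, and in mESCs it is widely used to drive the exit from pluripotency.

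The promoter of Cyp26a1, the gene of the main RA-degrading enzyme, is shown because it holds the DR5 motif and because the gene had the highest SMART-seq2 ratio of the 4 genes that mark this interval (Cyp26a1, Stra8, Klf2 and Dppa3). The window runs from 250 bases before the RefSeq start to 50 bases after it (GRCm38.p6, chr19:37697558-37697857, plus strand). Capitals mark the DR5 motif, which lies on the minus strand at 37697776 to 37697792, beginning 32 bases before the start.
Cyp26a1: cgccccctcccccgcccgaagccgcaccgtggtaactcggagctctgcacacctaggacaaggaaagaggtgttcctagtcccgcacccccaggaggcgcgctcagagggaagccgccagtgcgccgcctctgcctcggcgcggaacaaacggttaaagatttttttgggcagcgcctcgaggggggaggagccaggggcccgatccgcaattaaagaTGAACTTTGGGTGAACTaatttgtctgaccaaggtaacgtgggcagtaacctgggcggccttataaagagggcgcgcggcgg
Rarb, an RA receptor gene long known for such a site, is shown for comparison with the same marking (chr14:16575427-16575726, minus strand, motif at 16575513 to 16575529, beginning 53 bases before the start).
Rarb: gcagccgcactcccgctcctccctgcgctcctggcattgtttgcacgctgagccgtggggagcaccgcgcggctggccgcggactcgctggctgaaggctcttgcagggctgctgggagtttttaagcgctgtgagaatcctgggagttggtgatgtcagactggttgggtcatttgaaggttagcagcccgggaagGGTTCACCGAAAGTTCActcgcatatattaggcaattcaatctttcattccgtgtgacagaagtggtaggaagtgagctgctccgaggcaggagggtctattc
Read along the motif's own strand, the 2 repeated units in capitals and the spacer in lower case were as follows.
Cyp26a1 site: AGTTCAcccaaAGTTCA
Rarb site: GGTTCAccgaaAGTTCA

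The search took each of the 2 repeated units as AGGTCA, as AGTTCA, as GGGTCA or as GGTTCA, with any 5 bases between and on both strands. Such a motif was found in 32 of 32851 promoter windows (0.0974%) and so in 31 of 27025 genes (0.115%). Of the 59 genes 1.5-fold higher at 24 h, 41 had a window and 1 of these, Cyp26a1, held the motif (2.44%). A share that rests on 1 gene shows no enrichment. Among all genes higher in the 3 assays it was 1 of 1062 with a window (0.0942%), and among all genes past the floor 2 of 5537 (0.0361%). Of the 62 lower genes, 46 had a window and none held it. The windows of Stra8, Hoxb1, Stra6 and Nr0b1 did not contain these letters. A match is a description of the letters in 300 bases and not a measurement of binding.

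Depth differed little in bulk and more between the plates. The 12 h and 24 h bulk libraries held 2269894 and 2007491 unique molecular identifiers (UMIs), and SCRB-seq kept 285 and 290 of 384 wells with more than 2000 UMIs, with medians of 4609 and 3559.5 UMIs a well. SMART-seq2 held 86 and 89 cells, whose read depth cannot be read from RPKM values. The spread of the 24 h over 12 h ratios across all genes past the floor was 0.52 in bulk, 0.94 in SCRB-seq and 0.33 in SMART-seq2 (SD of log2 ratios). In single assays, 13.2% of the genes past the floor were at least 1.5-fold higher and 6.73% lower in bulk, 17.8% and 21.7% in SCRB-seq, and 3.8% and 3.08% in SMART-seq2. Bulk and SCRB-seq ratios had the same sign for 55.9% of these genes, bulk and SMART-seq2 for 59.4%, and SCRB-seq and SMART-seq2 for 54.9%. The smallest of the 3 ratios was the SMART-seq2 one for 83 of the 121 genes.

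A yardstick for a single library came from the 2 bulk mESC libraries. The second lay at least 1.5-fold above the first for 13% of the 7234 genes and below it for 17.4%, 30.5% in all, and the 2 were so far apart for 72 of the 121 (59.5%). Counting error alone left a ratio of 1 outside the exact 95% interval for 99 of the 121 genes in bulk, for 111 in SCRB-seq and for 89 in both. The 121 were chosen by these same ratios, so such counts are largely set by the choice and lend it no weight. The share over all genes past the floor was not computed. All intervals here cover counting error only, and the spread between cultures at 12 h or 24 h was not measured.

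The genes of RA handling that passed the floor were higher or mixed. Of 21 listed receptors, binding proteins and enzymes, 9 passed the floor, 4 were higher in all 3 assays (Cyp26a1, Crabp2 and Stra6 among them), none was lower in all 3 and 5 were mixed. The list's median log2 ratio was 0.78 in bulk, 0.67 in SCRB-seq and 0.51 in SMART-seq2, against 0.05, -0.02 and 0.01 over all genes past the floor. The 3 named passed 1.5-fold in every assay. Of these, Stra6 passed the floor on the plates only through its 24 h counts.

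Cyp26a1 had 12 UMIs at 12 h and 82 at 24 h in bulk, which is 5.29 and 40.8 CPM (UMIs per 1000000 of the library) and 7.73-fold higher (exact 95% interval 4.19 to 15.6). On the SCRB-seq plates it had 20 and 29 UMIs, a ratio of 1.82 whose interval, 0.993 to 3.39, includes 1. The SMART-seq2 mean was 38.7 and 319 scaled RPKM, 8.25-fold higher. The interval of the plates ended below the start of the bulk interval, so the 2 assays differed in size beyond counting error. A single SMART-seq2 cell at 24 h reached 8313 scaled RPKM, yet the ratio was 6.65 with the highest cell of each time point left out, and the median cell went from 12.6 to 86.4. In bulk the level had been 0.875 and 0.871 CPM in the mESC libraries and 1.47 at 6 h, and it went on to 64.1 CPM at 36 h and 156 at 60 h.

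Crabp2, which delivers RA to its nuclear receptors, stood at 35.7 CPM at 12 h and 109 at 24 h, 3.06-fold higher (2.36 to 4.00). The plates gave 15 and 46 UMIs, 3.84-fold (2.11 to 7.41), and SMART-seq2 29.3 and 90.8 scaled RPKM, 3.10-fold. Here the 3 assays gave ratios of much the same size (SD of log2 ratios 0.18). The bulk level was 19.7 and 15.7 CPM in mESCs and 29.8 at 6 h, all below the 24 h value, and 333 CPM at 36 h and 1159 at 60 h, all above it.

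Stra6, the membrane receptor for retinol bound to its carrier, went from 6.61 to 33.9 CPM in bulk, 5.13-fold higher (2.90 to 9.66). It had no UMI in the 285 wells at 12 h and 24 UMIs at 24 h, which against a floor of 3 UMIs on the 12 h plate is at least 10.0-fold higher. The 6 h plate had already held 11 UMIs (0.0459 per 10000, against 0.166 at 24 h), so the bound holds for the 12 h plate only. SMART-seq2 gave 10.1 and 29.9 scaled RPKM, 2.95-fold. Rarb did not pass the floor, with 2 and 9 UMIs in bulk, 13 and 0 on the plates and 19.5 and 22.4 scaled RPKM, so its direction was not the same in the 3 assays.

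**Figure D1:**
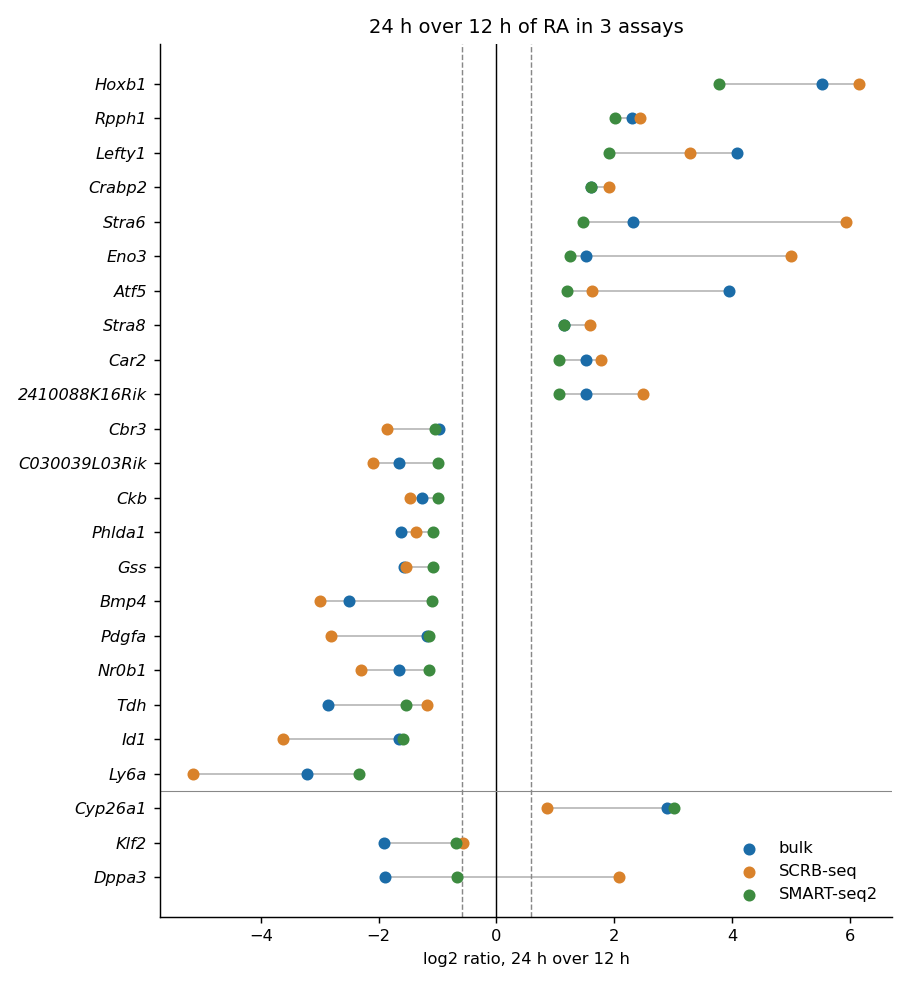
Log2 ratios of 24 h over 12 h in bulk, SCRB-seq and SMART-seq2 for genes of each direction with the largest smallest ratio and for Cyp26a1, Klf2 and Dppa3, with dashed lines at 1.5-fold either way. Hoxb1 lies farthest to the right, Ly6a farthest to the left, and Dppa3 has its SCRB-seq point on the other side of 0 from the other two.

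Stra8, named for its induction by RA and needed for meiotic entry in the germline, was higher in all 3 assays. Bulk held 590 UMIs at 12 h and 1161 at 24 h, or 259.9 and 578 CPM, 2.23-fold higher (2.01 to 2.46). The plates held 156 and 376 UMIs, 3.02-fold (2.50 to 3.66), and SMART-seq2 gave 269.6 and 601 scaled RPKM, 2.23-fold. All 3 intervals or values lay above 2, and the mESC libraries at 21 and 5.22 CPM and the 6 h library at 38.1 CPM lay below both time points. In bulk the level stayed near that of 24 h through 48 h (536 CPM at 36 h and 619.7 at 48 h) and had come down to 27.2 CPM by 96 h.

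Of 15 other genes listed as RA-induced, 5 passed the floor: 3 were higher in all assays (Stra8, Nrip1 and Gbx2), 1 was lower (Cdx1) and 1 was mixed. Nrip1, a corepressor of nuclear receptors that is itself an RA target, had 6 and 21 UMIs in bulk (3.96-fold, 1.54 to 12.0), 20 and 96 on the plates (6.01-fold, 3.69 to 10.3) and 17 and 26.6 scaled RPKM (1.56-fold). Cdx1, a caudal homeobox gene that answers to both RA and Wnt, went the other way, with 18 and 3 UMIs in bulk and 34 and 20 on the plates, and its SMART-seq2 means of 19.2 and 17.1 scaled RPKM were close. Of 16 germline genes, Stra8 among them, 7 passed the floor and only Stra8 and Ddx4 were higher in all 3 assays, the latter by less than 1.5-fold in bulk and SMART-seq2.

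Hox genes set position along the body axis, and those that passed the floor were on the higher side. Of 18, 4 passed the floor (Hoxa4, Hoxa5 and Hoxb1 among them), and all 4 were at least 1.5-fold higher in each assay. The floor is on the sum over both times, and Hoxb1, Hoxa4 and Hoxa5 passed it only through their 24 h counts. A Hox gene that stayed low could not pass, so this count is largely set by the floor and lends no weight. Under the floor, Hoxa2, Hoxa3, Hoxa7, Hoxb2, Hoxb3 and Hoxb5 were also higher in all 3 assays, with 13 or fewer plate UMIs each at 24 h. Others were mixed, as was Hoxb4, with 2 and 9 UMIs in bulk but 9 and 4 on the plates. Summed over the 18, the level was 33.9 CPM at 12 h and 281 at 24 h in bulk, 0.276 and 1.37 UMIs per 10000 on the plates, and 87.8 and 242 scaled RPKM. In the mESC libraries the sum was 13.6 and 7.84 CPM, and Hoxd1, Hoxd3 and Hoxd4 were at 0 in both bulk libraries of this comparison.

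Hoxb1, a gene of the B cluster that is active in the hindbrain, was at or near 0 at 12 h in all 3 assays. It had no UMI at 12 h and 20 at 24 h in bulk, and none in 285 wells against 28 UMIs in 290 wells. Against 3 UMIs per library the gap is at least 7.54-fold in bulk and at least 11.7-fold on the plates. In SMART-seq2 the mean was 0.0394 and 13.3 scaled RPKM, and the single highest cell at 12 h stood at 0.897. Earlier samples were not all without it. Bulk held 1 UMI in each mESC library and 2 at 6 h, and the 6 h plate held 1. The SMART-seq2 mean in mESCs was 4.02 scaled RPKM, above that at 12 h. In bulk the 36 h library, at 60.5 CPM, was the highest of the time course.

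Hoxa5, of the A cluster, gave 3.96 and 32.9 CPM (8.29-fold, 4.11 to 18.9), 9 and 49 UMIs on the plates (6.82-fold) and 16.7 and 32.5 scaled RPKM (1.95-fold). Hoxa4 rested on fewer counts, 4 and 22 UMIs in bulk and 2 and 23 on the plates.

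Hoxb2 stayed under the floor, since the plates held no UMI of it at 12 h and only 11 at 24 h. Bulk held 12 UMIs at 12 h and 280 at 24 h, 26.4-fold higher (14.9 to 51.7). Among 8 genes of the TALE class, whose proteins bind DNA with Hox proteins, 4 passed the floor, 3 were higher in all assays (Pbx2 and Meis2 among them) and 1 was mixed. Meis2 was higher in bulk and on the plates (4.35-fold and 1.98-fold) but only 1.14-fold higher in SMART-seq2.

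**Figure D2:**
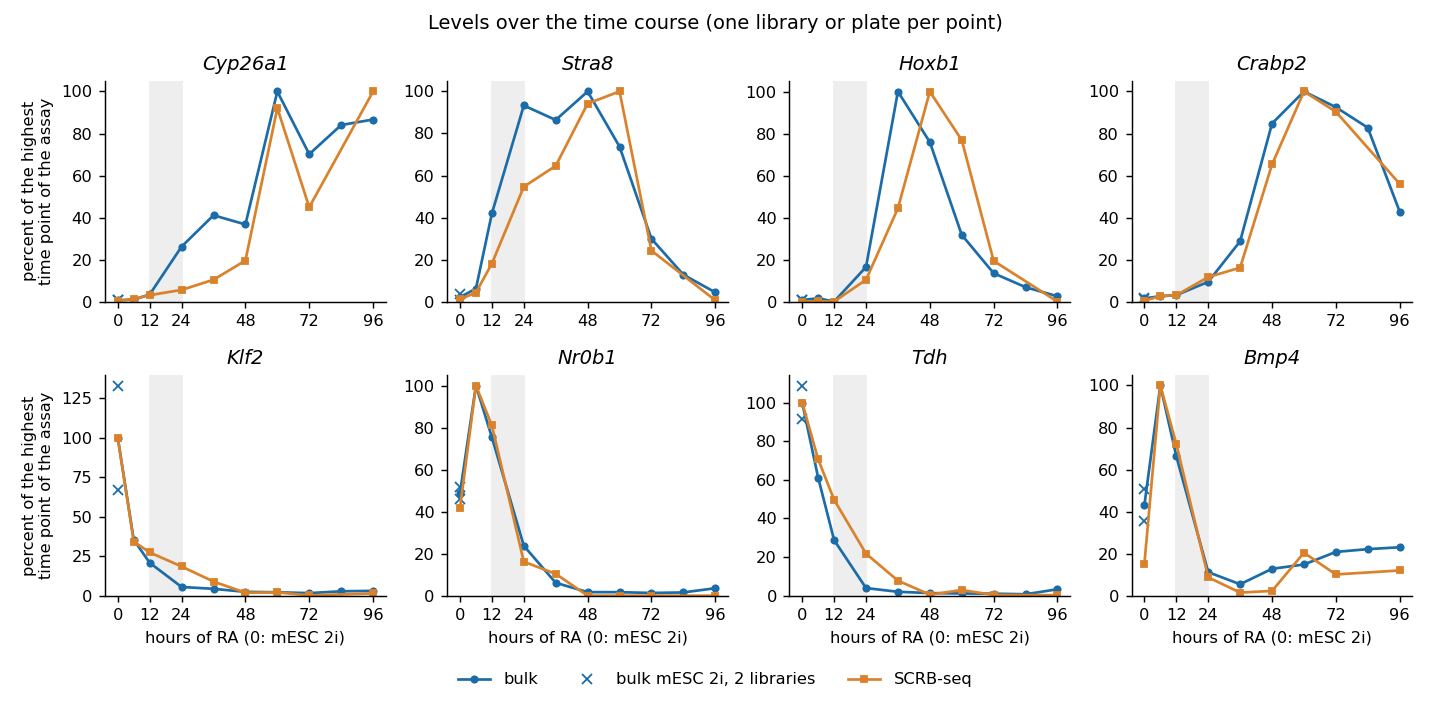
Levels of 8 genes over hours of RA in bulk (circles, crosses for the 2 mESC libraries) and SCRB-seq (squares), each as a percent of the highest time point of its assay, with the interval from 12 h to 24 h shaded. Cyp26a1, Stra8, Hoxb1 and Crabp2 climb across the shaded interval, and Klf2, Nr0b1, Tdh and Bmp4 descend across it.

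Genes of the Nodal and BMP pathways that passed the floor mostly lay on the lower side. Of 13, 8 passed the floor, 5 were lower in all assays (Bmp4, Id1, Id3, Nodal and Smad7), 1 was higher (Lefty1) and 2 were mixed. Bmp4, a secreted ligand, had 67 and 10 UMIs in bulk, 29.5 and 4.98 CPM, 5.93-fold lower (3.03 to 12.9). It had 114 and 11 UMIs on the plates, 8.27-fold lower (4.45 to 17), and 38.4 and 17.4 scaled RPKM, 2.21-fold lower. Both mESC libraries (15.7 and 22.6 CPM) and the 6 h library (44.5 CPM) were above the 24 h level. No later library of the unsorted bulk time course passed 10.3 CPM.

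Id1, a helix-loop-helix inhibitor that BMP signals induce, had 19 and 5 UMIs in bulk (3.36-fold lower, 1.21 to 11.5), 38 and 2 on the plates (15.2-fold, 3.92 to 129.7) and 20.5 and 6.17 scaled RPKM (3.32-fold). It was low in mESCs too, at 2.62 and 0.871 CPM, so that 6 h, with 17.6 CPM, and 12 h formed an early peak. A later and taller one followed, with 48.0 CPM at 72 h. Id3 had the same shape in bulk after 2i/L, 65.5 CPM at 6 h, 26 at 12 h, 11 at 24 h, 6.66 at 36 h and 368 at 72 h, but missed 1.5-fold in SMART-seq2 (52.6 and 38.6 scaled RPKM, 1.36-fold lower).

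Nodal, the ligand, was lower by 1.35-fold in bulk, where the interval of 0.850 to 2.18 includes 1, by 1.69-fold on the plates and by 1.25-fold in SMART-seq2. Lefty1, a secreted Nodal inhibitor and Nodal target, went up from 2 to 37 UMIs in bulk (20.9-fold, 5.4 to 179), from 2 to 19 on the plates (11.9-fold, 2.87 to 105) and from 10.7 to 43.2 scaled RPKM (4.04-fold). The SMART-seq2 ratio was 2.40 without the highest cells, 1 of which reached 1829 scaled RPKM at 24 h, and the share of cells above 5 scaled RPKM was 19.8% at 12 h and 21.3% at 24 h. Its 2 mESC bulk libraries read 0.875 and 26.6 CPM, a gap wider than that between 12 h and 24 h, and the mESC plate held 290 UMIs.

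Naive pluripotency genes were on the lower side, mostly by small steps. Of 20, 18 passed the floor and 10 were lower in all assays: Klf2, Esrrb, Tfcp2l1, Tbx3, Nr0b1, Zfp42, Tcl1, Fgf4, Dppa5a and Zfp57. Gbx2 alone was higher in all, and 7 were mixed. The list's median log2 ratio was -0.52 in bulk, -0.33 in SCRB-seq and -0.16 in SMART-seq2, and only Esrrb and Nr0b1 passed 1.5-fold in each. Of 12 genes of pluripotency in general, 5 were lower in all assays (Sox2, Sall4, Utf1, Dppa4 and L1td1), 7 were mixed and none passed 1.5-fold in all.

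Nr0b1, an orphan nuclear receptor (DAX1) of the mESC network, had 861 and 240 UMIs in bulk, 379 and 119.6 CPM, 3.17-fold lower (2.75 to 3.68). The plates held 201 and 32 UMIs, 5.01-fold lower (3.44 to 7.53), and the SMART-seq2 means were 268 and 120.0 scaled RPKM, 2.24-fold lower. It had first been higher at 6 h (503 CPM) than in the mESC libraries (260.3 and 232 CPM), and from 48 h the plates held no UMI of it. Esrrb, an orphan receptor that sustains self-renewal, was lower by 1.82-fold in bulk (32.6 and 17.9 CPM, 1.21 to 2.79), 1.67-fold on the plates and 1.56-fold in SMART-seq2.

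Klf2, a naive factor sustained by MEK inhibition, was lower in all 3 assays but missed 1.5-fold in 1. It had 158 and 37 UMIs in bulk (3.78-fold lower, 2.63 to 5.56), 206 and 111 on the plates (1.48-fold, 1.17 to 1.88) and 20.6 and 12.4 scaled RPKM (1.66-fold). Its level was already far below that of mESCs (224 and 444 CPM) at 6 h (118 CPM) and 12 h (69.6 CPM).

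Dppa3, a gene of naive and germ cells given as a marker of this interval, did not meet the rule. Bulk held 35 and 8 UMIs (3.87-fold lower, 1.76 to 9.66) and SMART-seq2 7.00 and 4.04 scaled RPKM (1.73-fold lower), but the plates held 5 UMIs at 12 h and 18 at 24 h, 4.51-fold higher (1.61 to 15.5). The mESC plate held 105 and the 6 h plate 48, and no plate after 24 h held more than 3. Bulk was at 1.22 CPM at 48 h. In SMART-seq2 the mean was 67.5 scaled RPKM in mESCs and 32.7 at 48 h, above both times of the comparison.

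Genes that MEK and ERK signals switch on were mostly lower. Of 16, 9 passed the floor, with 5 lower in all (Spry2, Spry4, Etv4, Etv5 and Phlda1), Dusp6 higher in all and 3 mixed. Etv4, an ETS factor downstream of FGF, was lower by 1.58-fold in bulk (84 and 47 UMIs, 1.09 to 2.31), 8.44-fold on the plates (74 and 7 UMIs, 3.90 to 21.7) and 1.53-fold in SMART-seq2. Phlda1 had 22 and 6 UMIs in bulk (3.24-fold lower, 1.28 to 9.78), 43 and 13 on the plates (2.64-fold) and 11.3 and 4.81 scaled RPKM (2.34-fold). Dusp6, the ERK phosphatase, gave 46.7 and 74.7 CPM (1.60-fold higher, 1.24 to 2.07), a plate ratio of 1.08 (0.825 to 1.40) and 65.8 and 95.1 scaled RPKM.

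Of 12 LIF and STAT3 targets, 11 passed the floor, 6 were lower in all assays (Socs3, Bcl3, Stat3, Icam1 and Sgk1 among them), 2 were higher (Pim1 and Il6st) and 3 were mixed. Only Icam1, a cell adhesion molecule, passed 1.5-fold, with 115 and 54 UMIs in bulk (1.88-fold lower, 1.35 to 2.65), 49 and 11 on the plates and 42.6 and 23.4 scaled RPKM. Of 13 Wnt targets, 2 passed the floor (Cdx1 and Ccnd1) and both were lower.

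Among the remaining genes of the lower side, the largest gap was that of Ly6a, which encodes the surface protein SCA-1. It had 152 and 14 UMIs in bulk (9.60-fold lower, 5.55 to 18), 111 and 2 on the plates (44.3-fold, 12.0 to 370.3) and 94.9 and 18 scaled RPKM (5.27-fold). The 2 mESC bulk libraries did not give 1 starting level, with 443 and 16.5 CPM, a gap wider than that between 12 h and 24 h in bulk.

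Metabolic enzymes were among the well-counted lower genes. Tdh, the threonine dehydrogenase on which mESCs depend, had 412 and 50 UMIs in bulk (7.29-fold lower, 5.42 to 9.98), 549 and 192 on the plates (2.28-fold, 1.93 to 2.70) and 228 and 78.1 scaled RPKM (2.92-fold). Its bulk level ran downwards from 575 and 686 CPM in mESCs through 385 at 6 h and 182 at 12 h to 24.9 at 24 h. Ckb, the brain-type creatine kinase, was lower by 2.42-fold in bulk (397 and 145 UMIs, 2.00 to 2.95), 2.78-fold on the plates (2.29 to 3.39) and 2.01-fold in SMART-seq2.

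Gss, glutathione synthetase, was lower by 3.03-fold (1.64 to 5.96), 2.99-fold (1.56 to 6.22) and 2.16-fold in bulk, SCRB-seq and SMART-seq2, and Cbr3, a carbonyl reductase, by 1.98-fold (1.5 to 2.64), 3.70-fold (2.23 to 6.43) and 2.09-fold. Pdgfa, the ligand of the receptor later used for sorting, had 34 and 13 UMIs in bulk (2.31-fold lower, 1.19 to 4.78), 162 and 18 on the plates (7.18-fold, 4.40 to 12.4) and 52.7 and 23.3 scaled RPKM (2.26-fold). C030039L03Rik was 3.36-fold lower in bulk (1.21 to 11.5) on 19 and 5 UMIs. Ildr1 rested on an unusual plate value, 56 UMIs at 12 h and none at 24 h, with 17 and 9 UMIs in bulk, where the interval of 0.704 to 4.25 includes 1.

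On the higher side, Car2, a carbonic anhydrase, was counted well, with 261 and 661 UMIs in bulk (2.86-fold higher, 2.48 to 3.32), 122 and 333 on the plates (3.42-fold, 2.77 to 4.24) and 123 and 259 scaled RPKM (2.10-fold). Slc2a1, the glucose transporter GLUT1, had 81 and 226 UMIs in bulk (3.15-fold, 2.44 to 4.12), 296 and 397 on the plates (1.68-fold, 1.44 to 1.96) and 100.4 and 179.8 scaled RPKM (1.79-fold). It was the only one of 16 glycolysis genes past the floor that passed 1.5-fold in all assays. Slc2a3, its paralogue, was lower in all 3, as were Hk1, Pfkp, Pgam1, Eno1 and Ldha, while Pfkl and Tpi1 were higher and 7 were mixed.

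Eno3, the muscle enolase, and Atf5, a stress-linked leucine zipper factor, had wide intervals. Eno3 rested on 24 and 62 UMIs in bulk (2.92-fold, 1.80 to 4.89) and on 1 and 38 on the plates (47.6-fold, 8.05 to 1929.6), and Atf5 on 1 and 20 in bulk (22.6-fold, 3.62 to 937) and 22 and 55 on the plates (3.13-fold, 1.88 to 5.39). Rpph1, the RNA component of RNase P, which has no poly(A) tail in its mature form, had 9 and 41 UMIs in bulk, 4 and 19 on the plates and 22.8 and 94.4 scaled RPKM (4.15-fold). 2410088K16Rik was higher by 2.88-fold (2.06 to 4.10), 5.66-fold (3.65 to 9.12) and 2.16-fold in bulk, SCRB-seq and SMART-seq2.

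Most markers of later cell types did not pass the floor at these times. Of 12 ectoderm markers 5 passed the floor, with Prtg and Mdk higher in all assays, none lower and 3 mixed, and their bulk sum was 301 CPM at 12 h and 582 at 24 h. Mdk, a growth factor of neural tissue, supplied much of it, at 198 and 332 CPM. Hoxb2, also on this list but under the floor and counted in the Hox sum too, was at 5.29 and 139 CPM. Of 11 XEN markers 4 passed the floor, Lamc1 higher, Sparc lower by at least 1.5-fold and 2 mixed, with a sum of 259.9 and 195 CPM. Sparc, a matrix protein, had 473 and 258 UMIs in bulk (1.62-fold lower, 1.39 to 1.89), 294 and 56 on the plates (4.19-fold) and 100.1 and 48.2 scaled RPKM (2.08-fold), and later reached 6201 CPM at 96 h.

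None of 6 mesoderm markers passed the floor, and T, Mixl1, Tbx6 and Hand1 were at 0 in both bulk libraries (sum 1.76 and 0 CPM). None of 8 fibroblast markers passed, with Col1a2 and S100a4 at 0 and a sum of 11 and 14.4 CPM. Of 9 keratin and trophoblast markers 1 passed and was mixed, Krt7, Elf5 and Hand1 were at 0, and the sum was 15.9 and 12.0 CPM. Of 7 post-implantation epiblast genes past the floor, Dnmt3a and Zic2 were higher in all assays, Etv4 and Igfbp2 lower and 3 mixed. DNA methylation enzymes (2 higher, 2 lower, 4 mixed), p53 targets (3, 2 and 6) and cholesterol synthesis genes (2, 1 and 15) held no gene at 1.5-fold in all assays.

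The single cells showed how many cells lay behind a mean. Above 5 scaled RPKM, Hoxb1 was found in 0 of 86 SMART-seq2 cells at 12 h (exact 95% interval up to 4.20%) and in 25 of 89 at 24 h (28.1%, 19% to 38.6%). Stra6 went from 30.2% (20.8% to 41.1%) to 76.4% (66.2% to 84.8%) and Cyp26a1 from 51.2% (40.1% to 62.1%) to 83.1% (73.7% to 90.2%). Hoxb1 was thus still under the threshold in most cells at 24 h, whereas the other two were over it in most.

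Stra8 was above the threshold in 84 of 86 cells at 12 h and in all 89 at 24 h, so its gap lay in the level per cell (medians 237 and 544 scaled RPKM). Of the lower genes, Ly6a went from 73.3% of cells (62.6% to 82.2%) to 25.8% (17.1% to 36.2%) and Id1 from 43% to 21.3%. Tdh was above it in all 86 cells and then in 81 of 89, with medians of 223 and 59.9, and Nr0b1 in 83 of 86 and 76 of 89, with medians of 235 and 63.4.

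The wells were thinned to 2000 UMIs each to make the plates comparable, and no cell type that lacks these genes was on them to give a background. Stra8 then had a UMI in 16.8% of wells at 12 h (12.7% to 21.7%) and 29.3% at 24 h (24.1% to 34.9%), against 29.1% and 47.2% unthinned. Tdh had one in 34.7% (29.2% to 40.6%) and 16.2% (12.2% to 21%), against 61.8% and 26.6% unthinned. Cyp26a1, at 1.75% (0.572% to 4.05%) and 2.76% (1.2% to 5.36%), did not differ beyond counting error. The 2 plates used the same 384 well names, and no well held the same counts on both.

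**Figure D3:**
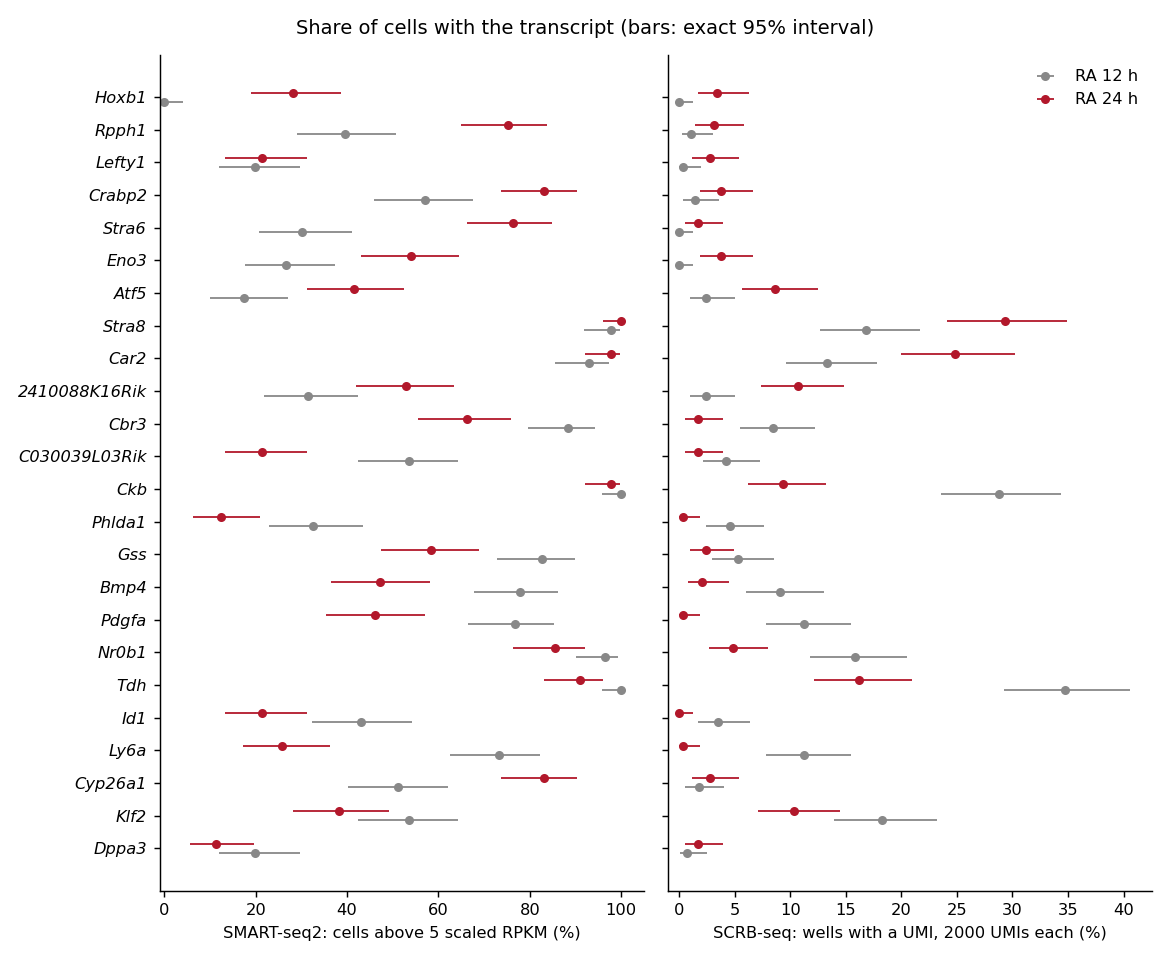
Share of SMART-seq2 cells above 5 scaled RPKM (left) and of SCRB-seq wells with a UMI after thinning to 2000 UMIs (right) at 12 h (grey) and 24 h (red), with exact 95% intervals as bars. Hoxb1 is at 0 at 12 h on both sides, and Lefty1 is the higher gene whose SMART-seq2 shares overlap most, at 19.8% and 21.3%.

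The rule used neither the 6 h nor the 36 h libraries, and most of the genes lay on the same side between those time points. At 36 h against 6 h, 43 of the 59 higher genes were at least 1.5-fold higher in both bulk and SCRB-seq and none was lower, where 6.29% of all genes past the floor were higher. Of the 62 lower genes, 55 were at least 1.5-fold lower in both and none was higher, where 8.40% of all genes were lower. The median log2 ratio was 1.99 in bulk and 2.04 in SCRB-seq for the higher genes and -2.29 and -2.04 for the lower ones, against -0.01 and -0.04 over all genes. These libraries come from the same differentiation series as 12 h and 24 h, so they are not separate cultures in the sense of a replicate.

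The step from 2i/L to 6 h did not have that order. At 6 h against mESCs 10 of the 59 were at least 1.5-fold higher in both assays and 5 lower, and 16 of the 62 were higher and 9 lower, with 4.92% of all genes higher and 5.21% lower. Bmp4, Nr0b1 and Id1 were among those whose 6 h bulk level lay above both mESC libraries. In bulk, 49 of the 59 higher genes had their highest library at 36 h or later and 10 at 24 h. Of the 62 lower genes, 28 were highest in mESCs, 13 at 6 h and 6 at 12 h, and 13 were highest at 96 h, Sparc among them. The rule itself barred a highest bulk library at 12 h for the higher genes and at 24 h for the lower ones. These peak counts are thus partly set by the choice, and the share over all genes past the floor was not computed.

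**Figure D4:**
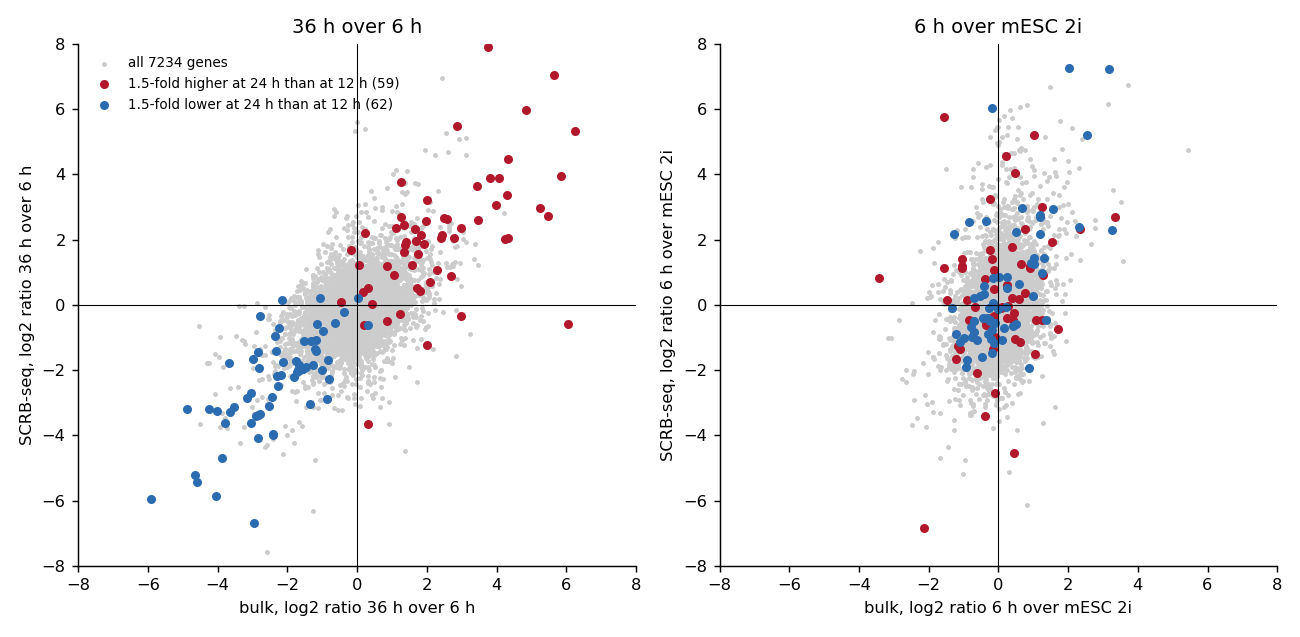
Bulk (x axis) against SCRB-seq (y axis) log2 ratios for 36 h over 6 h and for 6 h over mESC 2i, with all 7234 genes in grey, the 59 genes 1.5-fold higher at 24 h than at 12 h in red and the 62 lower ones in blue. Red and blue fall into opposite corners at 36 h over 6 h, with 43 and 55 past 1.5-fold in both assays, and mingle at 6 h over mESC 2i.

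The sorted populations at 96 h showed where these genes ended. The counts of 2 libraries a group were fitted together by edgeR's quasi-likelihood test over 8945 genes with Benjamini-Hochberg adjustment. The filter on low counts kept 45 of the 59 higher and 59 of the 62 lower genes. Both comparisons with mESCs use the same 2 mESC libraries.

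In sorted ectoderm-like cells against mESCs, 21 of the 45 tested higher genes were called higher (46.7%), 3 lower and 21 neither. Of the 59 tested lower genes, 2 were called higher, 40 lower (67.8%) and 17 neither. Over all tested genes, 9.82% were called higher and 9.27% lower. In sorted XEN-like cells against mESCs the calls were 10 higher (22.2%), 3 lower and 32 neither for the first set. For the second they were 6 higher, 30 lower (50.8%) and 23 neither, with 12.3% of all tested genes higher and 10.5% lower. Nr0b1 fell in both, from 260.3 and 232 CPM in mESCs to 2.22 and 0 in ectoderm-like and 2.03 and 3.65 in XEN-like cells (log2 ratios -7.93 ± 0.57 and -6.72 ± 0.52, SE, edgeR adjusted p = 1.05e-05 and 3.02e-05). Stra6 rose in both, from 0.875 and 0.435 CPM to 44.5 and 22.6 in ectoderm-like and 58.4 and 56.5 in XEN-like cells (log2 ratios 5.24 ± 0.57 and 6.12 ± 0.56, adjusted p = 0.000132 and 4.74e-05).

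XEN-like cells were then set against ectoderm-like cells directly. The fit called 4 of the 45 tested higher genes higher in XEN-like cells and 11 lower (30 neither). It called 14 of the 59 tested lower genes higher and 4 lower (41 neither), where 6.98% of all tested genes were higher and 5.71% lower. These 33 calls were 14 without the first ectoderm-like library, 20 without the second, 17 without the first XEN-like library and 25 without the second, and 51 without the filter on low counts. Crabp2 was at 1591 and 1112 CPM in ectoderm-like and 16.3 and 19 in XEN-like cells (log2 ratio -6.16 ± 0.34, adjusted p = 7.71e-06). Cyp26a1 went the other way, with 32.2 and 21.3 CPM in ectoderm-like and 270.2 and 148 in XEN-like cells (3.05 ± 0.34, adjusted p = 0.000802). For both genes the groups did not overlap.

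The other higher genes called above ectoderm-like cells in XEN-like cells were Car2, Lrp2 and Upp1, and those called below included Eno3, Car3, Sox4, Crmp1, Sox12, Tmem141, H2afy2, Phc2 and Pla2g16. Of the genes that were lower at 24 h, Sparc and Nid1, both of the basement membrane, were among the 14 higher in XEN-like cells. Bmp4, Sfrp1, Id1 and Ldhb made up the 4 that were lower. Bmp4 was at 10.0 and 16.2 CPM in ectoderm-like and 0 and 0.911 in XEN-like cells (-4.94 ± 0.91, adjusted p = 0.00545). Stra8, high at 24 h, was not called in any of the 3 comparisons and spread widely, with 82.8 and 9.69 CPM in ectoderm-like and 48.8 and 7.29 in XEN-like cells. In a bulk population or sort, fewer cells of a type and less RNA per cell cannot be told apart.

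**Figure D5:**
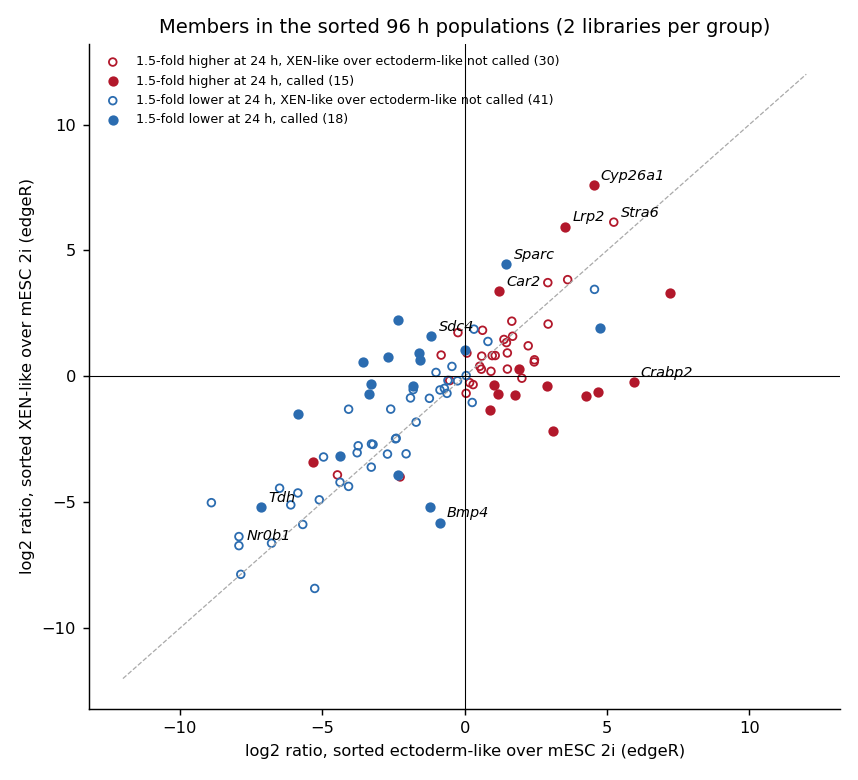
Log2 ratios over mESC 2i in sorted ectoderm-like (x axis) and sorted XEN-like cells (y axis), from edgeR, for the tested genes 1.5-fold higher (red) or lower (blue) at 24 h than at 12 h. Filled points were called between XEN-like and ectoderm-like cells (15 red and 18 blue), and Crabp2 lies below the dashed line of equal ratios, Cyp26a1 above it.

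The 1.5-fold limit had near neighbours on both sides. Grasp was the last gene inside on the higher side, with log2 ratios of 0.70 in bulk, 1.62 in SCRB-seq and 0.60 in SMART-seq2, and Cryge the first outside, with 1.03, 1.48 and 0.58. On the lower side Acaa2 was the last inside, with -0.97, -0.98 and -0.59, and Gtsf1l the first outside, with -0.57, -0.83 and -0.61.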

How the data were processed

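Bulk libraries, SCRB-seq plates (1 sorted cell a well) and SMART-seq2 cells of E14 mESCs were analysed from the values that the authors deposited. For bulk and SCRB-seq these are UMI counts per gene, which the authors made from reads aligned with BWA 0.7.4 and deposited without normalization. For SMART-seq2 the authors deposited RPKM computed with TopHat and Cuffnorm (mm10 is the build in the submitters' processing notes), so read depth is unknown. Gkn2 and Rn45s, 2 genes with damaged counts, were left out everywhere. Between 0.127% and 0.14% of the SMART-seq2 values were text with a decimal comma and were read as 0, and 4 repeated gene names were left out. No per-sample column was left unmapped.

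For each gene the log2 ratio of 24 h over 12 h was computed from bulk CPM and from SCRB-seq UMIs summed over wells with more than 2000 UMIs, each with 0.5 UMI added, and from the mean SMART-seq2 RPKM, each cell scaled to the same total (the median total of the mESC cells), with 1 added. This addition understates the ratio of low genes. Folds in the text are plain ratios of the values. Genes needed at least 20 UMIs over both times in bulk and in SCRB-seq and a SMART-seq2 mean over both times of at least 1 scaled RPKM. Intervals are exact, at 95%. No doublet caller was run. With 1 library for each assay and time no p-value was possible there.

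Sorted libraries were compared with edgeR 4.0.16 (R 4.3.3), its quasi-likelihood test fitted to the 2 mESC, 2 ectoderm-like and 2 XEN-like libraries without a replicate term, at an adjusted p of 0.05, and with DESeq2 1.42.0 as an alternative. The paper calls the replicates of these groups biological but does not say whether they came from separate cultures. The p-values therefore measure the spread between these libraries. The edgeR fit was tested on simulated data.

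Named genes were the 4 markers, the 12 in each direction with the largest value of the smallest of their 3 ratios, and genes of the fixed lists. Some of these genes are not reported here. Grasp, Cryge, Acaa2, Gtsf1l, Ildr1 and the genes called between the sorted populations were named after their values were seen. The members and the gene lists were chosen with earlier results of these data known. Promoter windows are from RefSeq (GRCm38.p6).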

Additional observations from a re-analysis of the deposited data

Results flagged for a closer look

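Sdc4, a cell-surface proteoglycan and 1 of the 62 genes lower at 24 h, moved in opposite directions in the sorted populations. It was at 93.6 and 98.8 CPM in mESCs, 39.5 and 66.5 in sorted ectoderm-like cells and 365 and 311 in sorted XEN-like cells. The log2 ratio over mESCs was -1.17 ± 0.31 (SE, edgeR adjusted p = 0.0205) in ectoderm-like and 1.60 ± 0.30 (edgeR adjusted p = 0.00267) in XEN-like cells, both against the same mESC libraries. The difference itself, XEN-like over ectoderm-like, was 2.77 ± 0.32 (edgeR adjusted p = 0.000854), and the 2 groups did not overlap.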

How the results depend on the processing

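Of the counts of genes, the no-floor setting (12670 genes) gave 2355 higher and 1857 lower in all 3 assays, and 305 and 225 at 1.5-fold. A floor of 100 UMIs and 5 scaled RPKM (3018 genes) gave 536 and 551, and 9 and 21 at 1.5-fold. A SMART-seq2 mean of log2 values gave 96 and 99 at 1.5-fold. Without bulk in the rule 1948 genes were lower and 122 and 103 passed 1.5-fold. Without SCRB-seq 2425 were higher and 1874 lower, and 112 were higher at 1.5-fold. Without SMART-seq2 the counts were 2166 and 1879, and 268 and 226 at 1.5-fold. A rule with fewer assays or a lower floor admits more genes by construction. Leaving out the highest SMART-seq2 cell of each time, which was chosen after the data had been seen, gave 1422 and 1145, and 64 and 59 at 1.5-fold. The median log2 ratio of Dppa3 over the assays turned to 0.70 without bulk and to 0.10 without SMART-seq2.

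At 2-fold in all assays 15 genes were higher and 10 lower. Of these, 14 and 10 held at 36 h against 6 h, 3 were higher and 1 lower in the direction of their set at 6 h against mESCs, and 7 were called between the sorted populations, 14 against mESCs in the ectoderm-like population and 12 in the XEN-like one. Without a filter on low counts, 51 of the 121 were called between XEN-like and ectoderm-like cells. Leaving out 1 library gave 14 to 25 calls there, 44 to 64 for ectoderm-like and 40 to 48 for XEN-like cells against mESCs. A group left with 1 library is assumed to vary like the others.

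A fit of the 4 sorted libraries, without the mESC libraries of the reported fit, called 37 of the 121 between the sorted populations in place of 33 (chosen after the data had been seen). With the replicate number as a block in that fit, 52 were called. Over all genes the 4-library fit called 694 higher and 565 lower of 8167 tested without the block, and 1324 higher and 1286 lower with it, in place of 624 and 511 of 8945. Same-numbered libraries deviated together (correlation 0.326 over genes), but with 2 pairs the numbers are not shown to pair the samples. Depth limits both counted assays. The interval of the ratio left out 1 for 99 of the 121 genes in bulk and for 111 on the plates, although the genes were chosen by these ratios. The plate interval of Cyp26a1 includes 1.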

Other observations

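Genes of the 2-cell-like state, which a small share of mESCs enters, did not pass the floor, but their SMART-seq2 values differed between the time points. Zscan4d was above 5 scaled RPKM in 0 of 86 cells at 12 h and in 8 of 89 at 24 h (8.99%), with a highest cell at 3123 scaled RPKM. Zscan4c was above it in 7 of the 89, Tcstv3 in 6 and Zscan4f in 5, and none of the 3 in any cell at 12 h. The sum over 13 such genes was 6.87 and 171 scaled RPKM in SMART-seq2, 3.96 and 16.4 CPM in bulk and 0.0882 and 0.504 UMIs per 10000 on the plates. Several of these genes, those of the Zscan4 family among them, are near-identical copies, so the split between such copies is uncertain.

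On the plates 9 genes had at least 30 UMIs at 12 h and none at 24 h (Add3, Ildr1, Jak2, Klhl20, Lck, Napepld, Tex15, Zfp760 and Zfp942), and 3 had the reverse (Nenf, Sdcbp2 and Slc25a14). Add3 had 35 and 0 UMIs on the plates, 32 and 27 in bulk and 19.9 and 27.6 scaled RPKM. Lck had 40 and 0 on the plates, 38 and 43 in bulk and 16.9 and 18.4 scaled RPKM. Sdcbp2 had 0 and 48 on the plates and 9 and 2 in bulk. Of the 12 genes only Ildr1 was among the 121.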
